A study of Mus musculus with 5 samples.

Results

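Neutrophils are short-lived granulocytes made in the bone marrow. They leave the blood along chemokine gradients read by Cxcr2, carry preformed granules of proteases and antimicrobial proteins, and stop making most granule transcripts as they mature. In mouse tumours they are known as a source of interleukin 1 beta, of CXC chemokines that draw in further neutrophils, and of enzymes such as the inducible nitric oxide synthase and cyclooxygenase 2 that act on neighbouring T cells.

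The cells described here are the neutrophils among CD45-positive, propidium-iodide-negative cells sorted from flank tumours of mice injected with the Lewis lung carcinoma line, which derives from a mouse lung tumour. The tumour cells carried a guide RNA against Jag2, which encodes a Notch ligand (JAG2KO, 2 libraries), or the control called Scramble (3 libraries). Every group shares the cell line, the injection site and the sort. The strain, age and sex of the mice, the number of tumours behind a library and whether the JAG2KO cells were 1 clone are not given in the sources used here. P-values between groups therefore rest on the spread between libraries, which may be technical in part. Those of the comparison between cell classes are an exception, described there.

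Kept barcodes had 500 or more unique molecular identifiers (UMIs, 1 per captured transcript), 250 or more genes, and no more than 10% of UMIs from mitochondrial genes. The neutrophils were chosen by measured transcripts. A kept cell was taken as one when S100a8 and S100a9 together made up at least 1% of its UMIs, when at least 2 of Csf3r, Cxcr2, G0s2, Retnlg and Hdc had a UMI, when Csf1r had none, and when C1qa, C1qb and C1qc together had at most 3. The rule found 1482 neutrophils among 57661 kept cells of 68276 barcodes. JAG2KO libraries 1 and 2 gave 108 and 202 of them, and Scramble libraries 1, 2 and 3 gave 414, 319 and 439. The levels of these 11 genes chose the cells and are given as a description, with no test.

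JAG2KO 2 stood apart from the other libraries, with 21854 barcodes against 10262 to 12706 and a median of 2422 UMIs per kept cell against 8064.5 to 8965. Total counts ranged from 84788907 to 111680641 UMIs. Between 26 and 74 barcodes were shared by any pair of libraries, and 1 barcode was a neutrophil in both JAG2KO 2 and Scramble 3. Jag2 itself had no UMI in JAG2KO neutrophils and 1, 1 and 0 UMIs in Scramble neutrophils 1, 2 and 3. The guide was given to tumour cells, so the neutrophils hold no check of the labels.

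The neutrophils were small libraries by cell. Their median was 1646 and 1147 UMIs in JAG2KO 1 and 2, and 1558, 1755 and 1717 UMIs in Scramble 1, 2 and 3. Their median share of mitochondrial UMIs was 0.351% and 0.375% in JAG2KO libraries and 0.386% to 0.518% in Scramble libraries, against 2.78% to 4.23% over all kept cells. S100a9 was the most abundant transcript, at 46568 and 70157 CPM (UMIs of the gene scaled to a fixed total per library sum) in summed JAG2KO neutrophils and at 63593, 51622 and 48435 CPM in Scramble neutrophils. S100a8 followed, and the 2 genes, which encode the subunits of calprotectin, took a median of 5.58% and 10.2% of a JAG2KO neutrophil's UMIs and 7.33%, 5.70% and 6.33% of a Scramble neutrophil's. In macrophage-marker cells S100a8 was at 0.311% and S100a9 at 0.289% of its level in neutrophils (at least 1 Csf1r UMI and at least 4 C1q UMIs).

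Markers that the rule did not use gave the same identity. Il1r2, the decoy receptor for interleukin 1, averaged 1619 CPM over the 5 libraries in neutrophils, 19 CPM in macrophage-marker cells and 70.9 CPM in monocyte-marker cells (Csf1r, Ly6c2 and Ccr2 with few C1q UMIs). Trem1, an activating receptor of granulocytes and monocytes, averaged 998 CPM in neutrophils and 44.2 CPM in macrophage-marker cells. Ly6g, the antigen used to sort mouse neutrophils, was near its detection limit, with 1 and 10 UMIs in all in JAG2KO neutrophils and 30, 15 and 39 in Scramble neutrophils, and averaged 0.0817 CPM in macrophage-marker cells. Ly6c2 averaged 54.2 CPM in neutrophils and 1547 CPM in monocyte-marker cells. Of the precursor genes, the azurophil granule proteases Elane and Ctsg and the peroxidase Mpo had no UMI in any neutrophil, and Prtn3 had 7 in all, none of them in JAG2KO libraries.

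**Figure D1:**
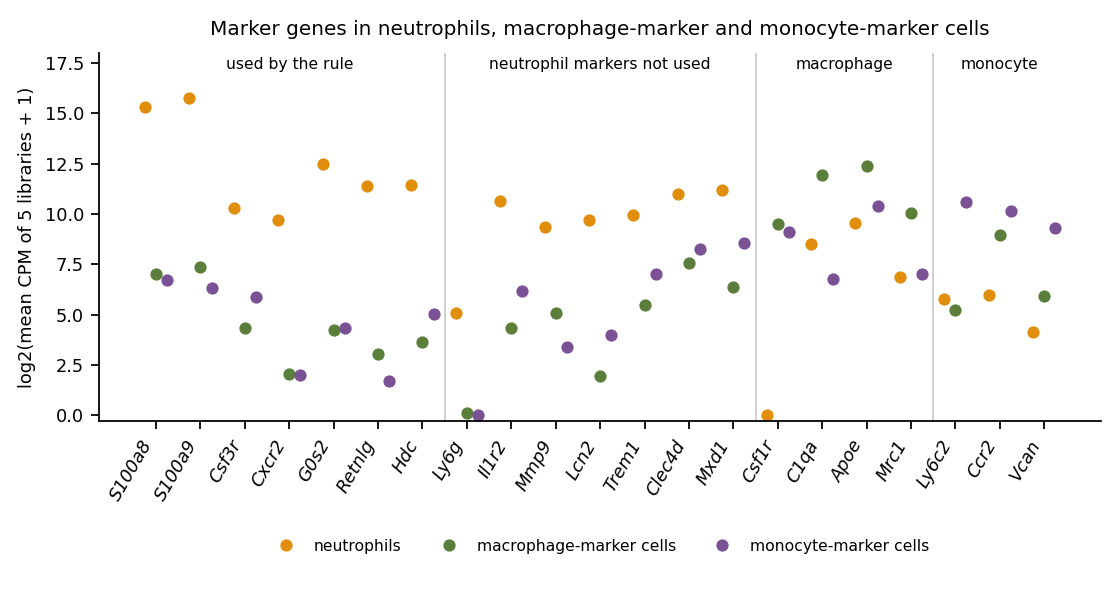
Mean levels over the 5 libraries, as log2(CPM + 1), of genes used by the rule, neutrophil markers it did not use, and macrophage and monocyte markers, in neutrophils, macrophage-marker cells and monocyte-marker cells. All 7 unused neutrophil markers drawn were highest in neutrophils, while Csf1r is 0 there by construction and C1qa averaged 358 CPM in neutrophils against 3896 CPM in macrophage-marker cells.

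RNA of other cells was also counted in these barcodes. The 8 macrophage markers summed to 1992 and 934 CPM in JAG2KO neutrophils and to 2186, 2726 and 2143 CPM in Scramble neutrophils, with Csf1r at 0 by the rule. A C1q UMI was present in 89 of 108 and 105 of 202 JAG2KO neutrophils and in 372 of 414, 293 of 319 and 377 of 439 Scramble neutrophils. The 5 T cell markers summed to 66.4 and 149 CPM in JAG2KO neutrophils and to 27.2, 31.2 and 9.29 CPM in Scramble neutrophils. Ccr7, listed as a dendritic cell marker, had 28 UMIs in JAG2KO 2 (104 CPM) and at most 4 in any other library. All 28 were in 3 cells, each over 3 times that library's median UMIs. Flt3, Xcr1, Cd209a and Fscn1, the rest of that list, had at most 5 UMIs in a library. The part of dendritic cell RNA in the neutrophil values was not tested. All 5 eosinophil markers together had at most 7.34 CPM in a library, with Epx, Prg3 and Il5ra at 0 throughout, and Ms4a1 of B cells was at 0.

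Neutrophils made up a smaller share of the sorted cells in JAG2KO tumours. They were 1.05% and 1.04% of kept cells in JAG2KO 1 and 2 (exact Clopper-Pearson 95% intervals 0.863% to 1.27% and 0.906% to 1.20%, counting error only). In Scramble 1, 2 and 3 they were 4.36%, 3.09% and 5.34% (3.96% to 4.79%, 2.76% to 3.44% and 4.86% to 5.85%). Both JAG2KO libraries were below all 3 Scramble libraries, and the ranges were far apart. The mean was 1.05% ± 0.00483 in JAG2KO libraries and 4.26% ± 1.13 in Scramble libraries (SD, n = 2 and 3), a ratio of 0.246. An exact two-sided permutation test over the 10 ways to assign the libraries gave p = 0.1, the smallest value this design allows. Within a sort of fixed size, fewer neutrophils and more of the other cells cannot be told apart.

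Set against macrophage-marker cells, the neutrophils numbered 1.47 and 1.78 per 100 in JAG2KO libraries and 6.07, 4.10 and 7.87 per 100 in Scramble libraries, a ratio of 0.271 (exact permutation p = 0.2). Without JAG2KO 2, the shallow library, the ratio of shares was 0.247, and without JAG2KO 1 it was 0.245. Thinning every cell to 1000 UMIs before applying the rule gave 1.19% and 0.919% in JAG2KO libraries and 5.07%, 5.11% and 6.12% in Scramble libraries, a ratio of 0.194.

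The condition on C1q moved this result most. It removed 30 and 20 otherwise eligible cells from JAG2KO libraries and 154, 278 and 132 from Scramble libraries, and the condition on Csf1r removed 37 and 71 against 158, 260 and 168. With neither condition the share was 1.70% and 1.52% in JAG2KO libraries and 7.64%, 8.30% and 8.99% in Scramble libraries, a ratio of 0.194. When no C1q UMI was allowed, only 19 and 97 JAG2KO cells and 42, 26 and 62 Scramble cells were left, the shares overlapped, and the ratio was 0.711 (exact permutation p = 0.5). The part of macrophage RNA in the barcodes in that change was not tested.

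**Figure D2:**
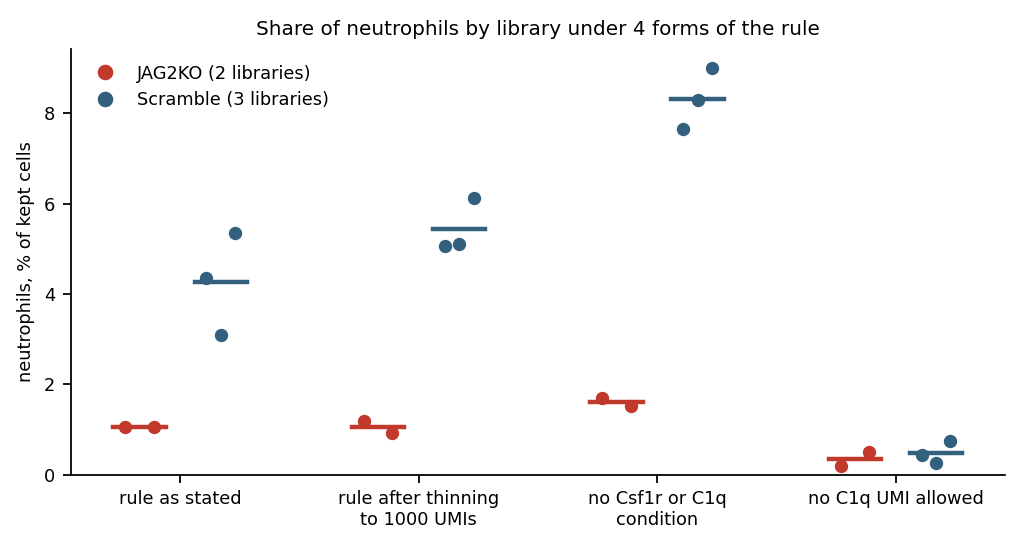
Neutrophils as a percentage of kept cells in each JAG2KO library (left of each pair) and each Scramble library (right), with bars at group means, under the rule as stated and under 3 other forms of it. The JAG2KO points lie below every Scramble point in the first 3 forms, at 1.05% and 1.04% against 3.09% to 5.34% under the rule as stated, and overlap them when no C1q UMI is allowed.

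The threshold on S100a8 and S100a9 cut through few cells. Between 1% and 1.5% of UMIs lay 3 and 10 JAG2KO neutrophils and 23, 27 and 30 Scramble neutrophils, and between 0.5% and 1%, meeting every other condition, lay 9 and 10 JAG2KO cells and 18, 35 and 40 Scramble cells. Just inside the threshold, Il1r2 was at 3548 and 1126 CPM in JAG2KO cells and at 1460, 1731 and 2344 CPM in Scramble cells. Just outside it was at 979 and 1046 CPM in JAG2KO cells and at 1662, 1809 and 1664 CPM in Scramble cells, so the cells on both sides carried this neutrophil gene.

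The most abundant transcripts after the S100 genes included chemokine and cytokine genes in both groups. Cxcl2, a chemokine that acts through Cxcr2, was at 24477 and 21837 CPM in JAG2KO neutrophils and at 26012, 22409 and 14584 CPM in Scramble neutrophils. Il1b was at 18810.0 and 15303 CPM in JAG2KO neutrophils and at 10976, 11464 and 10944 CPM in Scramble neutrophils. Fth1, the ferritin heavy chain, averaged 30757 CPM over the 5 libraries, and Srgn, the proteoglycan core of granules, averaged 13059 CPM. Among the most abundant genes were also Ccl4, Thbs1, Cxcl3, Cebpb and Nfkbia.

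To see how cells differ within a library, each neutrophil was thinned to 500 UMIs and split by whether it held a UMI of Ccl3 or Ccl4, chemokines for monocytes and T cells. The split put 71 of 108 and 106 of 202 JAG2KO neutrophils, and 256 of 414, 161 of 319 and 177 of 439 Scramble neutrophils, in the positive set. In all 5 libraries the positive set had more Cxcl3 (a mean over libraries of 6485 against 1858 CPM), Cxcl2 (27799 against 12697), Hilpda, a lipid droplet protein induced by hypoxia (1602 against 656), Cd274, which encodes PD-L1 (657 against 286), and Il1rn, the interleukin 1 receptor antagonist (2214 against 1135). In all 5 it had less Mmp9 (492 against 894 CPM), Cxcr2 (695 against 1081) and Msrb1 (994 against 1502). Il1b did not separate the sets, at 13181 against 13633 CPM and higher in the positive set in 2 of 5 libraries. The split is itself made on measured transcripts, so these values are a description with no test.

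For the comparison of expression, UMIs were summed over the neutrophils of each library and tested with edgeR's quasi-likelihood test, adjusted by the Benjamini-Hochberg method over all genes at a threshold of 0.05. The sums held 180702 and 268767 UMIs in JAG2KO libraries and 661819, 544686 and 753199 UMIs in Scramble libraries. Of 4742 genes tested, 27 passed (0.569%), 22 of them higher (0.464%) and 5 lower (0.105%) in JAG2KO neutrophils. Unadjusted, 445 had a p under 0.05. The number called rested on every library. It was 102 without JAG2KO 1, 51 without JAG2KO 2, and 2, 6 and 8 without Scramble 1, 2 and 3, with 21, 15, 2, 6 and 7 of the 27 genes among them.

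Nos2, which encodes the inducible nitric oxide synthase, showed the clearest fall. It was at 22.1 and 11.2 CPM in JAG2KO neutrophils and at 207, 162 and 189 CPM in Scramble neutrophils, so the groups were far apart. The log2 fold change was -3.44 ± 0.40 (SE), 10.8-fold lower, with an edgeR adjusted p of 0.000251. A Nos2 UMI was present in 3 of 108 and 2 of 202 JAG2KO neutrophils, and in 62 of 414, 40 of 319 and 50 of 439 Scramble neutrophils. The call held in all 16 alternative fits that tested Nos2, each library left out in turn included. In macrophage-marker cells Nos2 averaged 2.64 CPM, and it was at 2.41 and 1.84 CPM in JAG2KO libraries and at 3.06, 3.66 and 2.24 CPM in Scramble libraries.

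The other 4 genes that fell were Hmox1, Hist1h1c, Fcrls and Msr1. Hmox1, heme oxygenase 1, was at 387 and 309 CPM in JAG2KO neutrophils and at 961, 727 and 817 CPM in Scramble neutrophils (log2 fold change -1.17 ± 0.22, edgeR adjusted p = 0.021). Hist1h1c, a linker histone, was at 138 and 112 CPM in JAG2KO neutrophils and at 308, 325 and 335 CPM in Scramble neutrophils (log2 fold change -1.27 ± 0.23, adjusted p = 0.021). Fcrls was at 22.1 and 7.44 CPM in JAG2KO neutrophils against 60.4, 101 and 94.3 CPM in Scramble neutrophils. Msr1, a scavenger receptor of macrophages, was at 16.6 and 29.8 CPM in JAG2KO neutrophils against 110.3, 129 and 98.2 CPM in Scramble neutrophils. Fcrls and Msr1 are more abundant in macrophage-marker cells, at 471 and 578 CPM, and the summed macrophage markers in neutrophils were lowest in JAG2KO 2. The part of macrophage RNA in the changes of the 4 genes was not tested.

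By the smallest p among genes that did not pass, Ccl12, Lgmn, Mrc1, Noct and Ntpcr came next on the lower side. Ccl12, a monocyte chemokine, was at 22.1 and 22.3 CPM in JAG2KO neutrophils and at 106, 136 and 67.7 CPM in Scramble neutrophils (log2 fold change -2.06 ± 0.46, edgeR adjusted p = 0.0528). Noct, a phosphatase that acts on NADP(H), was at 49.8 and 81.9 CPM in JAG2KO neutrophils and at 216, 139.5 and 181 CPM in Scramble neutrophils (adjusted p = 0.091). Of these 5, Noct alone had a level in neutrophils above that in macrophage-marker cells, which was 26.6 CPM. Lgmn, Mrc1 and Ntpcr averaged 1277, 1046 and 144 CPM there.

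Among the genes that rose were Cish, Osm and Plaur. Cish, an inhibitor induced by STAT5, was at 88.5 and 149 CPM in JAG2KO neutrophils and at 15.1, 27.5 and 30.5 CPM in Scramble neutrophils (log2 fold change 2.44 ± 0.36, edgeR adjusted p = 0.00464). A Cish UMI was present in 13% and 15.3% of JAG2KO neutrophils and in 2.17%, 4.08% and 4.56% of Scramble neutrophils. Osm, which encodes the cytokine oncostatin M, was at 847 and 662 CPM in JAG2KO neutrophils and at 422, 435 and 347 CPM in Scramble neutrophils (log2 fold change 1.01 ± 0.20, adjusted p = 0.0271). Plaur, the urokinase receptor, was at 1184 and 1395 CPM in JAG2KO neutrophils and at 568, 808 and 656 CPM in Scramble neutrophils (1.05 ± 0.20, adjusted p = 0.0271). The JAG2KO values lay above every Scramble value for each of these genes. The Cish call held in 14 of 16 alternative fits, that of Osm in 11 of 17 and that of Plaur in 9 of 17.

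Bcl2a1a, an anti-apoptotic member of the Bcl2 family, had the smallest adjusted p of the genes that rose. It was at 221 and 219.5 CPM in JAG2KO neutrophils and at 43.8, 40.4 and 45.1 CPM in Scramble neutrophils (log2 fold change 2.46 ± 0.24, edgeR adjusted p = 4.01e-05). Its near-identical copies share 3' sequence, so reads may be split between them, and the level of any single copy is uncertain. Bcl2a1d was at 60.9 and 55.8 CPM in JAG2KO neutrophils and at 31.7, 12.9 and 14.6 CPM in Scramble neutrophils, with an adjusted p of 0.126. In JAG2KO 2, 34 of the 59 Bcl2a1a UMIs came from 5 of 202 cells.

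Rhoh and Jaml, genes of leukocyte signalling and migration, also rose. Rhoh, a GTPase of blood cells without GTP hydrolysis, was at 354 and 424 CPM in JAG2KO neutrophils and at 156, 176 and 165 CPM in Scramble neutrophils (log2 fold change 1.36 ± 0.21, edgeR adjusted p = 0.00582). Jaml, an adhesion molecule of migrating neutrophils, was at 421 and 349.7 CPM in JAG2KO neutrophils and at 144, 143 and 212 CPM in Scramble neutrophils (1.30 ± 0.22, adjusted p = 0.0169). The call of Rhoh held in 14 and that of Jaml in 12 of 17 alternative fits. Both are scarce in macrophage-marker cells, at 46.9 and 7.17 CPM. The summed T cell markers were higher in both JAG2KO sums, as given above. The part of T cell RNA in the Rhoh and Jaml changes was not tested.

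A further 9 genes that rose by less than 3-fold had edgeR adjusted p-values between 0.021 and 0.0467. They include Pts, an enzyme of tetrahydrobiopterin synthesis (277 and 145 CPM in JAG2KO neutrophils, 63.5, 84.5 and 85.0 CPM in Scramble neutrophils), Txnrd1, thioredoxin reductase (509 and 305 CPM in JAG2KO, 142, 215 and 208 CPM in Scramble), and Fgl2 (493 and 539.5 CPM in JAG2KO, 184, 261 and 316 CPM in Scramble). Nr4a3, a nuclear receptor induced early after stimulation, was at 260.1 and 260.4 CPM in JAG2KO neutrophils and at 124, 117 and 159 CPM in Scramble neutrophils. Id1, a dominant-negative helix-loop-helix protein, was at 199 and 201 CPM in JAG2KO neutrophils and at 95.2, 95.5 and 118 CPM in Scramble neutrophils. Clec4n, which encodes the lectin receptor dectin-2, was at 642 and 458 CPM in JAG2KO neutrophils and at 329, 314 and 280.1 CPM in Scramble neutrophils. The others were Cdc42ep3, Rilpl2 and D16Ertd472e, and all 9 genes were higher in both JAG2KO libraries than in any Scramble library. These calls were often lost in the alternative fits. Those of Txnrd1, Pts, Fgl2 and Clec4n held in 10, 9, 9 and 8 of 17, that of D16Ertd472e in 9 of 16, that of Rilpl2 in 7 of 16, and those of Nr4a3, Id1 and Cdc42ep3 in 7, 7 and 6 of 17.

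S100a4, Retnla, Nkg7 and Cd3g also passed the test, and other cells carry more or as much of them. S100a4 was at 603 and 480.0 CPM in JAG2KO neutrophils against 309.8, 341 and 284 CPM in Scramble neutrophils, and averaged 1924 CPM in macrophage-marker cells. In JAG2KO 2, 68 of the 129 S100a4 UMIs were in the 4 cells over 3 times the median UMIs, and 27.2% of cells held an S100a4 UMI. The share was 65.7% in JAG2KO 1 and 35.0% to 45.8% in Scramble libraries. Without such cells the log2 fold change of S100a4 was 0.60 (edgeR adjusted p = 0.453), and the call held in 6 of 16 alternative fits. Retnla, a marker of alternatively activated macrophages, was at 71.9 and 22.3 CPM in JAG2KO neutrophils against 0, 7.34 and 2.66 CPM in Scramble neutrophils, and averaged 117 CPM in macrophage-marker cells. In JAG2KO 2, a single cell held 11 of the 14 Nkg7 UMIs and a single cell held 11 of the 15 Cd3g UMIs. Both are genes of T and NK cells, and the summed T cell markers were higher in both JAG2KO sums, as given above. The part of T cell RNA or of barcodes holding more than 1 cell in these calls was not tested. Without the 8 neutrophils over 3 times their library's median UMIs, 32 genes passed, 21 of them among the 27. The calls of Traf1, Nr4a3, Hmox1 and S100a4 were lost there, and Nkg7 and Cd3g were no longer tested. Of the alternative fits that tested them, Hmox1 and Hist1h1c each passed in 12 of 17, Msr1 in 9 of 15, Fcrls in 7 of 15, Retnla in 10 of 11, Cd3g in 10 of 13 and Nkg7 in 5 of 12.

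**Figure D3:**
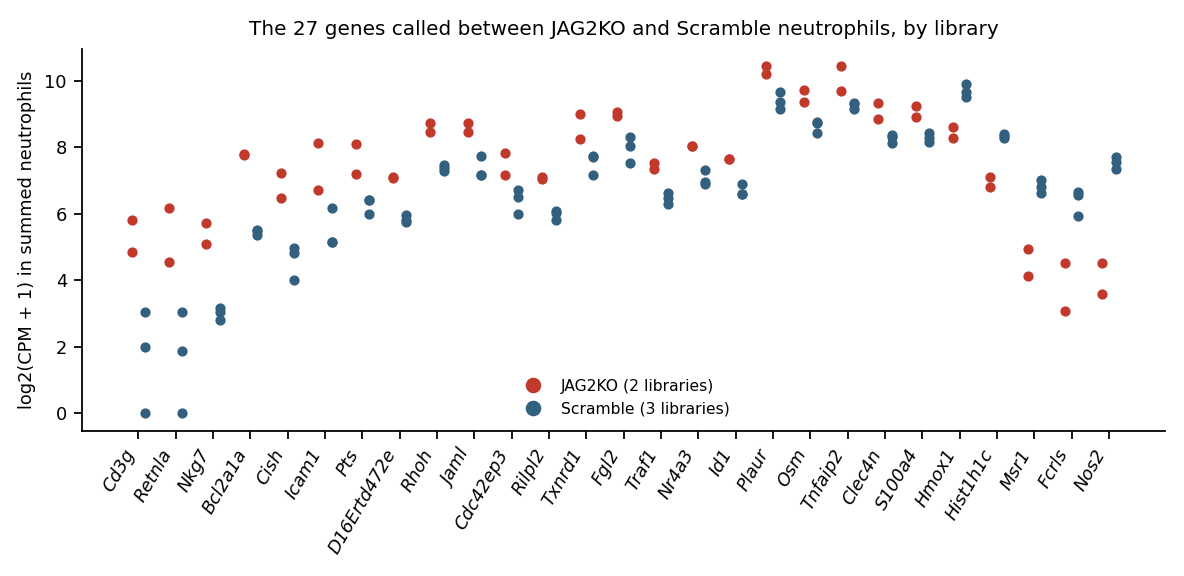
Levels in summed neutrophils, as log2(CPM + 1), of the 27 genes past the threshold, ordered by log2 fold change, with JAG2KO libraries to the left of Scramble libraries at each gene. The groups do not overlap at any of these genes, and Nos2 at the far right is at 22.1 and 11.2 CPM in JAG2KO libraries against 162 to 207 CPM in Scramble libraries.

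Genes induced by TNF and NF-kB were all on the higher side. Of 19 members, all of them tested, 3 rose (Icam1, Traf1 and Tnfaip2), beside 0.464% of all genes, none fell, and 16 did not pass. All 19 had a positive log2 fold change, with a median of 0.55, beside 48.6% of all genes and a median of -0.02 over them. Both JAG2KO libraries lay above all Scramble libraries for 10 of the 19, beside 9.22% of all genes. Members were chosen with results of these data known, so the count is no independent support. Over the 17 alternative fits the list's median lay between 0.25 and 0.81 and stayed positive, and it was lowest when no condition on Csf1r and C1q was set.

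Icam1, the adhesion molecule that binds leukocyte integrins, was at 282 and 104 CPM in JAG2KO neutrophils and at 71.0, 34.9 and 34.5 CPM in Scramble neutrophils (log2 fold change 2.05 ± 0.38, edgeR adjusted p = 0.021). JAG2KO 1 was well above JAG2KO 2. The call was lost without JAG2KO 1, where the log2 fold change was 1.35, and without Scramble 1, 2 or 3, where it was 2.51, 1.90 and 1.84 (adjusted p between 0.0587 and 0.111 over these 4 fits). Traf1, an adaptor of TNF receptors, was at 183 and 164 CPM in JAG2KO neutrophils and at 77.1, 97.3 and 87.6 CPM in Scramble neutrophils (1.10 ± 0.24, adjusted p = 0.0467). In JAG2KO 2, 17 of the 44 Traf1 UMIs were in cells over 3 times the median UMIs, and the call was lost without such cells. Tnfaip2 was at 1400.1 and 826 CPM in JAG2KO neutrophils and at 644, 573 and 628 CPM in Scramble neutrophils (0.94 ± 0.21, adjusted p = 0.0467). The call of Icam1 held in 11 of 16 alternative fits, that of Traf1 in 6 of 16 and that of Tnfaip2 in 8 of 17. Tnfaip3, which encodes the inhibitor A20, was at 692 and 432 CPM in JAG2KO neutrophils and at 340.0, 285 and 373 CPM in Scramble neutrophils and did not pass (0.83 ± 0.21, adjusted p = 0.0969). Tnf itself was at 88.5 and 40.9 CPM in JAG2KO neutrophils and at 63.5, 16.5 and 50.5 CPM in Scramble neutrophils, which overlap (adjusted p = 0.805).

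The promoters of this list were searched for 2 motifs in the 250 bases before each start site, on both strands, in RefSeq sequence of GRCm38.p6. The first, GGGA, any 4 bases and CC, a pattern of NF-kB sites, was present in 6 of the 16 members with a sequence, in 22.4% of the 3810 tested genes with one, and in 17.6% of all 32851 promoters of this length. The second, TTC, any 3 bases and GAA, a pattern of STAT sites, was present in 5 of the 16 members, in 5.77% of tested genes and in 7.02% of all promoters. A match describes letters only. Forms of either site that differ from these patterns are not marked, so a window without a match may still hold one. The windows shown are Icam1 as the member with the largest change, and 3 members picked because they hold the first motif, with matches to either motif in capitals and every window read 5′ to 3′ toward the start site.
Icam1: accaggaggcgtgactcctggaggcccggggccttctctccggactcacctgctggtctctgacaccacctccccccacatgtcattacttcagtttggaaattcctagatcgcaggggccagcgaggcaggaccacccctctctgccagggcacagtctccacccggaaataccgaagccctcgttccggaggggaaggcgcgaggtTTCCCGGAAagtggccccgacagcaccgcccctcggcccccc
Tnfaip3: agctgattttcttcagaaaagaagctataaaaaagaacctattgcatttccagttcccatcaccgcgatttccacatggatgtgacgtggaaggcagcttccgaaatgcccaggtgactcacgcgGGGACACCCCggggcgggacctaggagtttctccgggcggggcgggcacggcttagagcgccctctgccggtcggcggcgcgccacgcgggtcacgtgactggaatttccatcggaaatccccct
Nfkbia: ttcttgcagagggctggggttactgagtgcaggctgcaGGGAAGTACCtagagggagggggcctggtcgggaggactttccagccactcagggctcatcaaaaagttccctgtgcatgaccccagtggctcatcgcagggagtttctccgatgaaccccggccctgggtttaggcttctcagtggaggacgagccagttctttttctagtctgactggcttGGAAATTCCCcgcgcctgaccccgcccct
Nfkb2: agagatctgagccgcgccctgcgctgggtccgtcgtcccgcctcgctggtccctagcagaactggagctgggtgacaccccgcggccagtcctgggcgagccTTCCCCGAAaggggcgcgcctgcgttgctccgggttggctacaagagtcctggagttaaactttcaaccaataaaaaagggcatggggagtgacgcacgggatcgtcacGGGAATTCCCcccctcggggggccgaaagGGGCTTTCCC

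The Icam1 window lies at chr9:21015690-21015939 on the plus strand and holds no match to the first motif and 1 to the second, starting 42 bases before the start site. The Tnfaip3 window, at chr10:19015411-19015660 on the minus strand, holds GGGACACCCC, starting 125 bases before the start site. The Nfkbia window, at chr12:55492648-55492897 on the minus strand, holds 2 matches, starting 212 and 29 bases before it. The Nfkb2 window, at chr19:46304487-46304736 on the plus strand, holds 2 matches to the first motif, starting 39 and 10 bases before it, and 1 to the second, starting 148 bases before it. The 2 motifs did not overlap in these windows. Nfkbia, the inhibitor of NF-kB that NF-kB itself induces, was at 4593 and 4015 CPM in JAG2KO neutrophils and at 3719, 3488 and 3471 CPM in Scramble neutrophils, above every Scramble library without passing the test (edgeR adjusted p = 0.566). Nfkb2 overlapped between the groups, at 111 and 81.9 CPM in JAG2KO neutrophils and 72.5, 56.9 and 131 CPM in Scramble neutrophils.

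The interleukin 1 genes lay on the higher side without any passing. Of 12 tested members, 11 had a positive log2 fold change with a median of 0.45. Il1b had a log2 fold change of 0.72 ± 0.19 (edgeR adjusted p = 0.118), and its JAG2KO levels given above exceed every Scramble level. Il1a was at 116 and 112 CPM in JAG2KO neutrophils and at 46.8, 78.9 and 46.5 CPM in Scramble neutrophils (adjusted p = 0.118). Il1rn was at 2308 and 1886 CPM in JAG2KO neutrophils and at 1685, 1215 and 1184 CPM in Scramble neutrophils, and Nlrp3, the inflammasome sensor, at 1245 and 908 CPM in JAG2KO neutrophils and at 712, 690.3 and 878 CPM in Scramble neutrophils (adjusted p = 0.156 and 0.235). Without the conditions on Csf1r and C1q, 6 of the 12 were positive and the median was 0.05.

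Type I interferon response genes also lay mostly on the higher side, with no call. Of 27 tested members, 25 had a positive log2 fold change, beside 48.6% of all genes, with a median of 0.56. For 12 of them both JAG2KO libraries exceeded all Scramble libraries, beside 9.22% of all genes. Rsad2, the antiviral enzyme viperin, was at 1024 and 815 CPM in JAG2KO neutrophils and at 263, 659 and 591 CPM in Scramble neutrophils (log2 fold change 0.98 ± 0.27, edgeR adjusted p = 0.13). Isg15, a ubiquitin-like protein, was at 459 and 900.4 CPM in JAG2KO neutrophils and at 198, 525 and 348 CPM in Scramble neutrophils, which overlap (1.09 ± 0.32, adjusted p = 0.163). Oasl1 and Ifi47 had adjusted p-values of 0.098 and 0.0981. The spread within groups was wide, and without the conditions on Csf1r and C1q 14 of the 27 were positive, with a median of 0.03.

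Of the chemokines, none passed among 13 tested. Ccl4 was at 9972 and 6173 CPM in JAG2KO neutrophils and at 5418, 3512 and 2412 CPM in Scramble neutrophils (log2 fold change 1.17 ± 0.28, edgeR adjusted p = 0.071). Ccl3 was at 5158 and 4449.9 CPM in JAG2KO neutrophils and at 4289.7, 2785 and 1479 CPM in Scramble neutrophils (0.84 ± 0.31, adjusted p = 0.319). Ccl6 was at 4128 and 3326 CPM in JAG2KO neutrophils and at 2549, 2354 and 2140.2 CPM in Scramble neutrophils (adjusted p = 0.0908). Ccl5 and Ccl22 were highest in JAG2KO 2, at 153 and 55.8 CPM, against 55.3 and 22.1 CPM in JAG2KO 1, at most 40.8 CPM of Ccl5 and at most 9.18 CPM of Ccl22 in any Scramble library. In JAG2KO 2, a single cell held 30 of the 41 Ccl5 UMIs and a single cell held 14 of the 15 Ccl22 UMIs. Without neutrophils over 3 times the median UMIs the log2 fold change of Ccl5 was 0.79 (edgeR adjusted p = 0.655), against 1.94 with them. The Cxcl2 levels given above overlap, with a log2 fold change of 0.24 ± 0.24.

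Genes tied to suppression of T cells did not move together. Of 17 tested, 2 rose (Osm and Clec4n) and 1 fell (Nos2), beside 0.464% and 0.105% of all genes. Ptgs2, which encodes cyclooxygenase 2, was at 4449 and 2106 CPM in JAG2KO neutrophils and at 1772, 1904 and 1719 CPM in Scramble neutrophils (log2 fold change 0.94 ± 0.23, edgeR adjusted p = 0.0792). Arg2, mitochondrial arginase, was at 509 and 513 CPM in JAG2KO neutrophils and at 337, 382 and 398 CPM in Scramble neutrophils (adjusted p = 0.251). Cd274 was at 786 and 528 CPM in JAG2KO neutrophils and at 428, 386 and 429 CPM in Scramble neutrophils (adjusted p = 0.105). For these 3 genes the JAG2KO values lie above the Scramble values, while for Nos2 they lie below.

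Of 19 tested genes said to mark tumour-associated neutrophils, none passed. Both JAG2KO libraries lay above all Scramble libraries for 4 of them and below for 5, beside 9.22% and 20% of all genes. Siglecf was at 27.7 and 40.9 CPM in JAG2KO neutrophils and at 24.2, 31.2 and 26.6 CPM in Scramble neutrophils, and Vegfa at 266 and 219.5 CPM in JAG2KO neutrophils and at 236, 224 and 260.2 CPM in Scramble neutrophils. Cxcr4, the receptor that holds neutrophils in the bone marrow, was at 459 and 647 CPM in JAG2KO neutrophils and at 539, 626 and 645 CPM in Scramble neutrophils (log2 fold change 0.01 ± 0.21, edgeR adjusted p = 0.987). Spp1, osteopontin, was at 1107 and 915 CPM in JAG2KO neutrophils and at 2073, 1663 and 1532 CPM in Scramble neutrophils (-0.70 ± 0.21, adjusted p = 0.166). Spp1 averaged 2304 CPM in macrophage-marker cells, at 682 and 599.8 CPM in JAG2KO libraries and at 4257, 3004 and 2976 CPM in Scramble libraries, lower in JAG2KO libraries there too. The part of macrophage RNA in the Spp1 values was not tested.

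Granule, stefin and glycolysis genes lay near or below the rest. None of 15 tested secondary and tertiary granule genes passed, and their median log2 fold change was -0.15. Mmp9 was at 819 and 625 CPM in JAG2KO neutrophils and at 757, 479 and 631 CPM in Scramble neutrophils, Mmp8 at 172 and 115 CPM in JAG2KO and at 304, 141 and 150.0 CPM in Scramble, and Lcn2 at 675 and 959.9 CPM in JAG2KO and at 1171, 621 and 803 CPM in Scramble. All 3 overlap. Ltf, Ngp and Camp, which are transcribed in marrow precursors, had at most 5 UMIs in any library and were not tested. Of 7 stefin-like genes, cysteine protease inhibitors of mouse neutrophils, 6 were negative, with a median of -0.77 and none called. Stfa1 was at 99.6 and 44.6 CPM in JAG2KO neutrophils and at 202, 127 and 123 CPM in Scramble neutrophils (edgeR adjusted p = 0.272). These genes are near-identical copies, so their separate levels are uncertain.

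Of 27 tested hypoxia and glycolysis genes, 21 were negative with a median of -0.18, and none passed. For 13 of them both JAG2KO libraries lay below all Scramble libraries, beside 20% of all genes. P4ha1, a collagen prolyl hydroxylase induced by hypoxia, was at 127 and 96.7 CPM in JAG2KO neutrophils and at 218, 193 and 262 CPM in Scramble neutrophils (log2 fold change -0.92 ± 0.26, edgeR adjusted p = 0.13). Eno1 was at 94.1 and 141 CPM in JAG2KO neutrophils and at 213, 207 and 202 CPM in Scramble neutrophils, and Tpi1 at 481 and 424 CPM in JAG2KO and at 679.9, 674 and 647 CPM in Scramble, both enzymes of glycolysis. Plin2, the lipid droplet coat protein, was at 459 and 443 CPM in JAG2KO neutrophils and at 1157, 824 and 716 CPM in Scramble neutrophils (adjusted p = 0.111). The median of this list was negative in all 17 alternative fits, between -0.35 and -0.09.

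**Figure D4:**
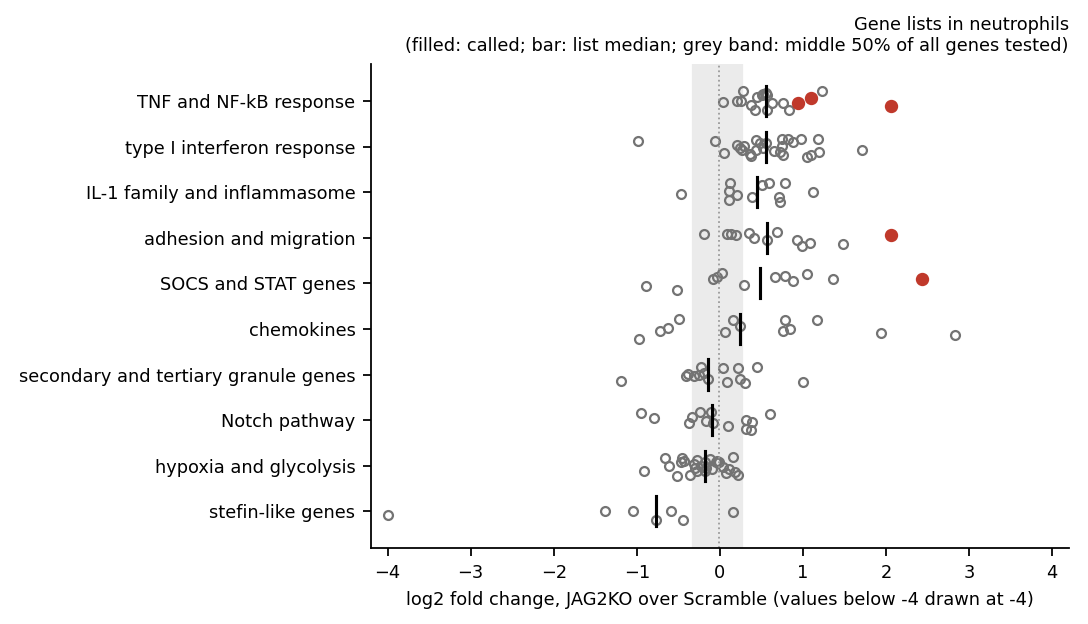
Log2 fold change of JAG2KO over Scramble neutrophils for each tested gene of 10 lists, with called genes filled, list medians as black bars and the middle 50% of all 4742 genes in grey. The TNF and NF-kB genes lie to the right of 0 with a median of 0.55, and the stefin-like genes lie mostly to the left with a median of -0.77.

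The Notch pathway was sparse. Of 37 genes, 14 were tested and none passed, with 6 positive, 8 negative and a median of -0.10. Notch1 was at 71.9 and 22.3 CPM in JAG2KO neutrophils and at 36.3, 33 and 42.5 CPM in Scramble neutrophils. Notch2 was at 77.5 and 156 CPM in JAG2KO neutrophils and at 96.7, 84.5 and 125 CPM in Scramble neutrophils. For both receptors the groups overlap, and the sign of the log2 fold change depended on 1 library. It was -0.54 for Notch1 without JAG2KO 1 and 0.93 without JAG2KO 2, and 0.81 for Notch2 without JAG2KO 1 and -0.41 without JAG2KO 2. Psenen, a subunit of the gamma-secretase that cleaves Notch, was at 127 and 112 CPM in JAG2KO neutrophils and at 175, 171 and 151 CPM in Scramble neutrophils (edgeR adjusted p = 0.715).

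Shares of neutrophils with a transcript were compared for 12 genes after thinning each neutrophil to 500 UMIs. An Il1b UMI was found in 92.6% and 94.1% of JAG2KO neutrophils and in 81.6%, 85.0% and 85.4% of Scramble neutrophils, against 16.8% to 27.7% of macrophage-marker cells thinned the same way. Ptgs2 was found in 73.1% and 53.0% of JAG2KO neutrophils and in 44.9%, 44.5% and 44.4% of Scramble neutrophils, against 3.83% to 6.64% of macrophage-marker cells. Cd274 was found in 28.7% and 20.8% of JAG2KO neutrophils and in 15.5%, 15.4% and 15% of Scramble neutrophils. For these 3 genes the groups did not overlap, with exact permutation p = 0.1, the smallest possible, and 0.3 after adjustment over the 12 genes. At full depth the mean share in JAG2KO and in Scramble libraries was 99% and 93.3% for Il1b, 77.3% and 67.2% for Ptgs2, and 44.7% and 31.9% for Cd274. Ccl3 was found in 46.3% and 42.6% of JAG2KO neutrophils and in 45.9%, 32.6% and 25.1% of Scramble neutrophils, which overlap (exact permutation p = 0.3).

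Whether the JAG2KO change differed between neutrophils and macrophage-marker cells was tested in 1 edgeR model of both classes with the library as a block. Of 13763 genes, 116 differed (0.843%), 86 with a higher change in neutrophils (0.625%) and 30 with a lower one (0.218%). Genes that chose the cells were left in these counts, and S100a8, S100a9 and Retnlg are among those with a higher change. For such genes the difference is a description with no test. Without the library block, 1 gene differed. With 5 libraries, adjusted p-values as small as those given below cannot be read as a measure of the spread between libraries. The 2 classes come from the same barcoded libraries and carry some of each other's RNA. S100a8 was at 26.5 and 82.3 CPM in macrophage-marker cells of JAG2KO libraries and at 144, 235 and 149.6 CPM in those of Scramble libraries, and Retnlg at 0.391 and 3.28 CPM against 9.82, 12.9 and 9.66 CPM, and JAG2KO libraries, with the smaller shares of neutrophils, were lowest in both.

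Of the gene lists, that of type I interferon response genes held the most of these differences. Of 28 tested members, 13 differed, all with a higher change in neutrophils, beside 0.625% of all genes. Isg15 was at 26.2 and 20.4 CPM in JAG2KO macrophage-marker cells and at 25.8, 48.7 and 47.4 CPM in Scramble ones. Its difference of log2 fold changes was 1.85 (edgeR adjusted p = 5.49e-28). Its change passed in neither class alone (edgeR adjusted p = 0.163 in neutrophils and 0.166 in macrophage-marker cells). Rsad2 was at 40.2 and 32.9 CPM in JAG2KO macrophage-marker cells and at 48.5, 63.4 and 72.8 CPM in Scramble ones. Its difference was 1.69 (edgeR adjusted p = 6.23e-28), and its change also passed in neither class alone (edgeR adjusted p = 0.13 and 0.0659). Over the list, the median log2 fold change was 0.56 in neutrophils and -0.70 in macrophage-marker cells. Other neutrophil genes differed too. Of 18 secondary and tertiary granule genes, 4 had a higher change in neutrophils and 1 a lower one, and 2 of 7 stefin-like genes had a higher one. Lcn2 and Slpi, with log2 fold changes of 0.04 and 0.08 in neutrophils, were at -2.21 and -2.03 in macrophage-marker cells. The macrophage-marker level was 0.338% of the neutrophil level for Lcn2, 1.15% for Slpi, 6.93% for Isg15, 7.69% for Rsad2 and 2.27% for Slfn4. The part of neutrophil RNA in the macrophage-marker values was not tested.

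**Figure D5:**
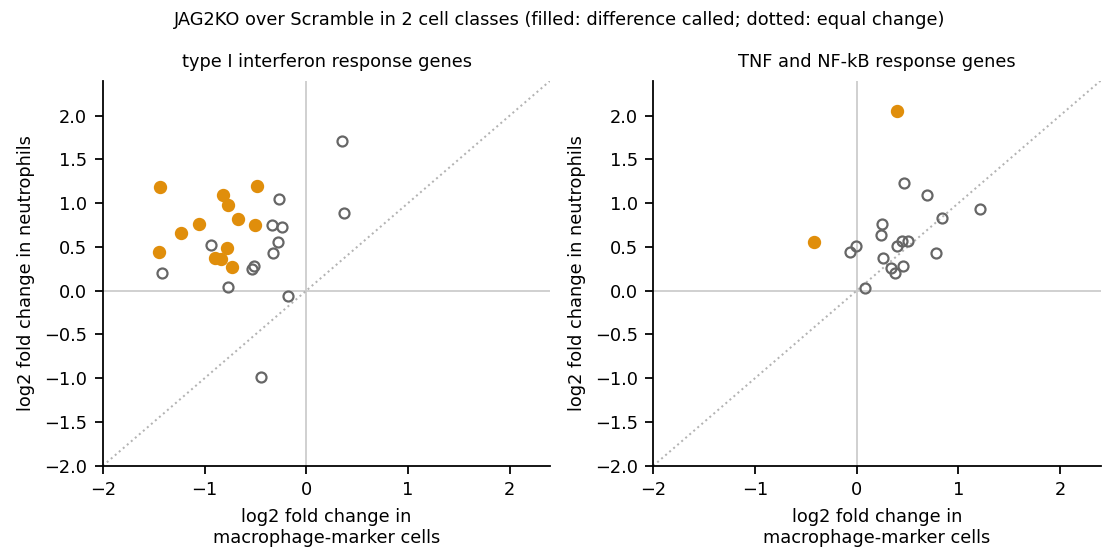
Log2 fold change of JAG2KO over Scramble in macrophage-marker cells (horizontal) and in neutrophils (vertical) for type I interferon genes and for TNF and NF-kB genes, with genes whose 2 changes differed filled. The filled interferon genes lie in the upper left, with Isg15 at 1.09 in neutrophils and -0.82 in macrophage-marker cells, and of the TNF and NF-kB genes only Icam1 and Ier3 are filled.

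Of 19 tested TNF and NF-kB genes, 2 differed, Icam1 and Ier3, beside 0.843% of all genes. The list's median log2 fold change was 0.55 in neutrophils and 0.39 in macrophage-marker cells, and Icam1 rose more in neutrophils, with a difference of 1.56 (edgeR adjusted p = 1.68e-06). The chemokines Ccl3, Ccl4 and Cxcl3 differed by 1.23, 1.60 and 1.69, with the higher change in neutrophils. Cxcl3 had a log2 fold change of 0.16 in neutrophils (edgeR adjusted p = 0.922) and -1.60 in macrophage-marker cells. Its macrophage-marker level was 1.11% of the neutrophil level. For Ccl3 and Ccl4 the log2 fold changes were 0.84 and 1.17 in neutrophils and -0.36 and -0.48 in macrophage-marker cells. The part of neutrophil RNA in the macrophage-marker values was not tested. On the lower side, the MHC class II genes H2-Ab1 and H2-Eb1 differed by -1.12 and -1.51. H2-Ab1 was at 172 and 219.5 CPM in JAG2KO neutrophils and at 193, 244 and 145 CPM in Scramble neutrophils, and at 1266 and 3218 CPM in JAG2KO macrophage-marker cells and at 643, 1207 and 1088 CPM in Scramble ones.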

How the data were processed

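The data are single-cell RNA-seq libraries of sorted tumour leukocytes, 2 JAG2KO and 3 Scramble, deposited as matrices of UMI counts per gene and barcode that the authors made with cellranger 6.0.0, per the file headers. Seurat and the builds GRCm38 and mm10 are listed, per the submitters' processing notes, and the labels' protocols name a 3′ library kit from 10x Genomics. The deposited counts are not normalized. Groups come from the labels. The matrices hold 32285 genes, and 9 members of the gene lists are not analysed here.

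Cells were kept and neutrophils chosen by the rule in the report, with no doublet caller run. Members and lists were chosen with earlier results of these data known. Counts were summed per library and tested with edgeR 4.0.16 (limma 3.58.1, R 4.3.3): TMM scaling, filterByExpr, quasi-likelihood test, Benjamini-Hochberg adjustment over all genes, threshold 0.05. DESeq2 1.42.0 was an alternative. The difference between cell classes was an interaction term with the library as a block. CPM are UMIs of a gene scaled to a common total over the summed cells. A fold change is fitted by edgeR. Shares were compared by exact two-sided permutation over the 10 ways to assign the libraries. Shares of cells with a transcript were taken after thinning each cell to 500 UMIs with a fixed seed. Intervals are exact Clopper-Pearson at 95% and cover counting error only. Scripts ran in Python 3.11.15 (numpy 2.4.6, scipy 1.17.1, pandas 2.3.3, matplotlib 3.10.9), and the edgeR fit was tested on simulated data. Alternatives were other cell and gene filters, other forms of the rule, thinning, a replicate block and leaving out each library.

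Genes named were the called genes of at least 20 CPM whose groups do not overlap, up to 15 each way, up to 4 members of each list by smallest p, a set of neutrophil genes, and the 5 largest differences between cell classes each way. Where fewer than 10 genes were called in a direction, genes with the smallest p were named as not passed. Called genes outside that rule, and single members of lists beyond it, were chosen after their values were seen. The split by Ccl3 and Ccl4 and the promoter search were also made after values were seen.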

Additional observations from a re-analysis of the deposited data

Results flagged for a closer look

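The largest differences of the JAG2KO change between neutrophils and macrophage-marker cells are given here as neutrophil minus macrophage-marker log2 fold change. They were tested by the edgeR interaction with Benjamini-Hochberg adjustment, whose p-values cannot be read as a measure of the spread between libraries. Nos2 had a difference of -3.05 (adjusted p = 3.82e-06), with the neutrophil and macrophage-marker levels given in the report. The Nos2 difference between cell types was 2.49 against monocyte-marker cells (adjusted p = 0.798), and without the library block it was -3.05 (adjusted p = 0.0839) and did not pass. Retnlg, a resistin-like granulocyte gene, helped choose the neutrophils, so its difference of 2.92 is a description with no test, from a log2 fold change of 0.15 in neutrophils and -2.59 in macrophage-marker cells, where its level was 0.271% of that in neutrophils. Ifit3b, an interferon-induced gene, had a difference of 2.62, and was at 44.3 and 74.4 CPM in JAG2KO neutrophils and at 15.1, 45.9 and 29.2 CPM in Scramble neutrophils.

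Ccl1, a chemokine, had a difference of 4.51, and all 46 of its UMIs in JAG2KO 2 neutrophils were in 1 cell, with none in JAG2KO 1. Tbc1d4 had a difference of 3.26, and 18 of its 25 UMIs in JAG2KO 2 neutrophils were in 1 cell. Mllt6 had a difference of 2.60, at 49.8 and 33.5 CPM in JAG2KO neutrophils and at 1.51, 7.34 and 7.97 CPM in Scramble neutrophils. These values rest on few UMIs, with 9 in JAG2KO 1, 9 in JAG2KO 2 and 1 in Scramble 1. In JAG2KO 2, 4 of the 9 were in cells over 3 times the median UMIs.

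On the lower side, Adam19, a membrane protease, had a difference of -2.13, with a log2 fold change of -0.51 in neutrophils and 1.59 in macrophage-marker cells. Acvrl1, a receptor for BMP ligands, had a difference of -2.12. It was at 11.1 and 18.6 CPM in JAG2KO neutrophils, from 2 and 5 UMIs, and at 60.4, 42.2 and 65.1 CPM in Scramble neutrophils. Egr3 had a difference of -1.72, with a log2 fold change of 0.07 in neutrophils and 1.70 in macrophage-marker cells. Msr1 had a difference of -1.71, with -2.07 in neutrophils and -0.45 in macrophage-marker cells. The part of RNA from the other class in these values was not tested.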

How the results depend on the processing

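The share of neutrophils was lower in JAG2KO libraries under every alternative run, with ratios of 0.194 to 0.282, leaving out each library included, and of 0.711 when no C1q UMI was allowed, where the cause was not tested. The 27 calls became 91 with no filter on low counts, 6 after thinning sums to the smallest library (2516 genes tested), 34 with DESeq2, 80 with a replicate block, 0 when no C1q UMI was allowed (1071 genes tested with edgeR, 84 at an unadjusted p under 0.05, not run with DESeq2), and 2 to 102 with 1 library left out. Deviations from the group mean had correlations of 0.0475 and -0.0421 between same-numbered libraries. The deviations of the 2 JAG2KO libraries mirror each other, so these values cannot decide whether the numbers pair libraries. With no condition on Csf1r and C1q genes, or with the rule applied after thinning, both added after seeing the data, 20 and 22 genes were called. The 116 differences between cell classes became 35 against monocyte-marker cells, 1 without the library block and 67 to 121 with 1 library left out. The cause of these changes was not tested.

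Directions turned for these values, none of them past a threshold except the called differences of Nos2, which was 2.49 against monocyte-marker cells, and Ccl1, which ran from -8.88 to 5.21 with 1 library left out. Differences in the share of neutrophils with a UMI, JAG2KO minus Scramble in percentage points, were at full depth -0.258 for Mmp8, 0.0750 for Siglecf and -0.653 for Cxcl2. After thinning to 1000 UMIs they were -2.68 for Mmp8, 1.84 for Cxcr4 and -0.892 for Cxcl2. With 1 library left out they ran from -0.910 to 1.88 for Mmp8, from -1.47 to 1.01 for Siglecf, from -3.75 to 3.04 for Cxcr4, from -1.60 to 2.80 for Cxcl2 and from -0.266 to 1.59 for Ltf. Log2 fold changes with 1 library left out ran from -2.89 to 0.018 for Ly6g, from -0.40 to 0.31 for Cxcr4, from -0.59 to 0.073 for Mmp8, from -0.37 to 0.35 for Lcn2, from -0.54 to 0.93 for Notch1, from -0.41 to 0.81 for Notch2, from -0.019 to 0.23 for Trem1 and from -0.0066 to 0.63 for Nfkb2. With no filter they were -0.082 for Cxcr4 and -0.050 for Lcn2, with at least 1000 UMIs -0.013 for Cxcr4 and -0.16 for Vegfa, with S100 genes at 2% -0.090 for Cxcr4, and with thinned sums -0.016 for Cxcr4 and -0.077 for Lcn2. With no C1q UMI allowed they were -0.049 for Vegfa, -0.32 for Lcn2 and -0.11 for Trem1. With no condition on Csf1r and C1q genes they were -0.28 for Siglecf, -0.015 for Vegfa, -0.29 for Lcn2 and -0.022 for Trem1, and after thinning the rule -0.43 for Siglecf and -0.042 for Vegfa. JAG2KO neutrophils, with 180702 and 268767 UMIs in all, limit the depth of every test.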
